A study of Mus musculus with 9 samples.

Results

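The odorant receptor (OR) genes examined here are those with symbols numbered from Olfr987 to Olfr1318, which lie on chromosome 2. They were chosen by number alone and comprise 247 of the 24421 genes in the count table, and 247 of its 1125 Olfr genes. Their RNA was measured by sequencing of whole main olfactory epithelium (MOE), the nasal tissue that houses the olfactory sensory neurons (OSNs), in mice at postnatal day 14. The mice had 0 copies (wild-type, WT), 1 copy (heterozygous, het) or 2 copies (homozygous, homo) of a CRISPR-Cas9 deletion that removes TAAR enhancer 2, an element in the trace amine-associated receptor (Taar) gene cluster on chromosome 10, with 3 libraries per genotype. No mouse carried another engineered allele or received a treatment according to the labels. All mutant mice came from 1 established knockout line, the genotypes were littermates, and both sexes were used. The labels give the strain as C57BL/6. The deletion was made in C57BL/6J zygotes, and the study describes its several mouse lines as being on mixed backgrounds. The question put to these genes was whether OR RNA on another chromosome differs when the Taar element is missing.

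ORs are G-protein-coupled receptors that detect volatile odorants. Each mature OSN expresses a single allele of a single OR gene, and chosen genes are activated with the help of enhancers bound by the factors Lhx2, Ldb1 and Ebf while the remaining OR genes stay in silent chromatin. RNA from a whole epithelium therefore reports mainly how many neurons chose a receptor and how much of it each neuron makes. In these bulk libraries, fewer cells that express a gene and less RNA per cell cannot be told apart.

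Total counts ranged from 20527992 to 32262005 per library. Taar6, a gene beside the deleted element, was at 6.57, 6.62 and 6.27 CPM (normalized counts relative to library size, with TMM factors) in WT, at 4.54, 4.42 and 5.23 in het, and at 0.635, 0.610 and 0.743 in homo, so each library followed its label. Omp, which marks mature OSNs, ranged from 1999 to 2388 CPM over the 9 libraries. The 3 libraries that carry replicate number 1, 1 of each genotype, stood apart from the other 6, and what the number stands for is not given. They are therefore compared with numbers 2 and 3 below, and genotype results are also given without them. That comparison was chosen because earlier results of these same data had shown the split. Its p-values describe the split and are no independent evidence of it.

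Of the 247 genes, 245 matched GENCODE M21 (GRCm38) by symbol, and Olfr1182 and Olfr1213 matched RefSeq (GRCm38.p6) only. The genes formed 2 segments separated by 20.8 Mb. The first held 210 genes between positions 85330779 and 90403897 on chromosome 2, and the second held 37 genes between 111230360 and 112159157. Among them 155 lay on the minus strand and 90 on the plus strand. Symbols of 5 genes end in -ps or -ps1, the sign of a pseudogene, and the annotation lists 5 genes as polymorphic pseudogenes and 242 as protein-coding. The flanking numbers lie elsewhere: Olfr986 is on chromosome 9 and Olfr1320 on chromosome X. Olfr987, the first gene, ranged from 2.51 to 3.85 CPM, and Olfr1318, the last, from 1.23 to 2.40 CPM.

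The longest reading frame had a median of 313 residues in the 245 GENCODE genes. ORs carry an Asp-Arg-Tyr motif at the inner end of the third membrane helix, where the receptor meets its G protein, and a related stretch was found in 216 of the 245. The stretch is shown for 2 of the most abundant genes because it is the part that the family shares most closely. It has 30 bases, with the codons of the motif in capitals:
Olfr1110: atggcctatGATCGCTATgtggcaattgca
Olfr1015: atggcatatGATCGACACgctgcaatttgt
In all, 150 different forms of the stretch were found. Counts of close copies are less certain, since how reads that fit several genes were treated is not stated. Of 50-base windows along each gene's exons, a median of 96.8% occurred in no other annotated gene. In 69 genes under 90% of the windows were unique, and the lowest share was 50.2%, in Olfr1282, which shares 37.7% of its windows with Olfr1286. Olfr1049, at 61.7% unique, shares 38.3% with Olfr1051.

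Nearly all of the genes were detected. At least 1 count was present in all 9 libraries for 241 genes, and 244 had the 10 counts in total needed for testing. Olfr1061 had none, while Olfr1128 had 9 counts and Olfr1248 had 3. Mean CPM over the 9 libraries had a median of 2.25, and 195 genes reached 1 CPM. The 10 most abundant held 16.1% of the summed level, and 54 genes together held 50% of it, so the RNA was spread over many receptors.

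The gene with the highest mean was Olfr1264, at 12.02, 19.98 and 15.1 CPM in WT, 15.7, 18.9 and 20.7 in het, and 14.1, 20.6 and 19.8 in homo. In each genotype the number 1 library was the lowest, and the genotypes overlapped. Olfr1213 followed with 9.79 to 21.03 CPM, Olfr1110 with 7.90 to 17.6 and Olfr1228 with 7.90 to 18.3. The remaining 6 of the 10 were Olfr1196, Olfr1262, Olfr1260, Olfr1297, Olfr1222 and Olfr1015, with means between 8.53 and 9.86 CPM. Each neighbouring pair in this order overlapped over the 9 libraries, in 9 of 9 pairs.

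**Figure D1:**
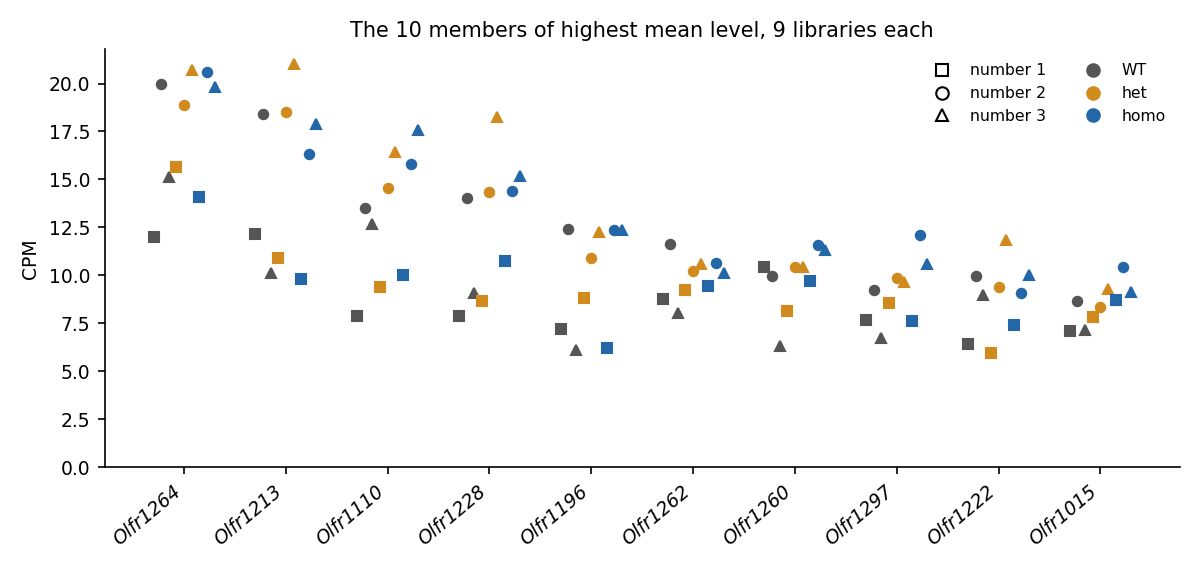
CPM (vertical axis) of the 10 most abundant genes, with 1 point per library, coloured by genotype and shaped by replicate number. The squares of number 1 lie low for Olfr1110 and Olfr1222, and the libraries of homo and WT overlap for each gene but Olfr1015, whose homo libraries start at 8.70 where its WT libraries end at 8.69.

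Because longer transcripts collect more reads, levels were also expressed per kilobase of annotated exon. On this scale Olfr1110 came first with 4.15 ± 1.07 CPM per kb (SD, n = 9), followed by Olfr1264 with 4.04 ± 0.751 and Olfr1006 with 3.94 ± 0.582, and these 3 did not differ beyond their spread. Olfr1297 moved from rank 7 by CPM to rank 59, since its annotated exons cover 6998 bp. Median CPM per kb was 0.766 in the first segment (n = 208) and 0.594 in the second (n = 37), which is a description without a test.

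No gene of the group was called between homo and WT. A call needed an adjusted p under 0.05 by edgeR's quasi-likelihood test with Benjamini-Hochberg correction over all 19775 genes tested and a fold over 1.5, which 0.0202% of those genes met. All 244 adjusted p-values were 1. The p before adjustment fell under 0.05 for 3 genes, each of them higher in homo. At that limit 34 of the 844 other Olfr genes tested and 0.779% of all genes were higher. DESeq2 also called 0 with 3 at an unadjusted p under 0.05, and limma-voom called 0 with 5.

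The 5 genes higher in homo with the smallest p were Olfr1002, Olfr1121, Olfr1294, Olfr1253 and Olfr1173. Olfr1002 was at 1.52, 1.92 and 1.33 CPM in WT, 2.08, 2.12 and 2.50 in het, and 2.04, 2.80 and 2.42 in homo. All homo libraries lay above all WT libraries. The log2 fold change was 0.60 ± 0.229 (SE), and 0.0266 was its unadjusted p by edgeR. Olfr1121 was at 1.18, 0.835 and 0.627 CPM in WT and 1.13, 1.83 and 1.30 in homo, where number 1 of homo fell below number 1 of WT. Its log2 fold change was 0.71 ± 0.309, with an unadjusted p of 0.0472. Olfr1294, in the second segment, was at 5.40, 4.79 and 4.31 CPM in WT and 7.53, 5.52 and 5.98 in homo, without overlap, and its log2 fold change was 0.39 ± 0.173. Olfr1253 and Olfr1173 did not overlap either, and their log2 fold changes were 0.44 ± 0.199 and 0.34 ± 0.155.

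In the other direction the smallest unadjusted p belonged to Olfr1115. It was at 1.47, 1.48 and 1.47 CPM in WT, 1.14, 1.13 and 1.11 in het, and 0.771, 1.36 and 1.08 in homo. Its homo libraries all lay below its WT libraries. This held for 1 of the 244 genes of the group, 3 of the 844 other Olfr genes and 536 of all 19775 genes. The log2 fold change of -0.46 ± 0.261 had an unadjusted p of 0.114 by edgeR. The next 4 were Olfr1101, Olfr1023, Olfr1287 and Olfr1184, whose log2 fold changes lay between -0.22 and -0.49 with overlapping libraries. Among the 10 most abundant genes the log2 fold changes lay between 0.06 for Olfr1222 and 0.38 for Olfr1228, none with an unadjusted p under 0.05. Olfr1015 was the single one of these 10 without overlap, at 7.11, 8.69 and 7.15 CPM in WT and 8.70, 10.44 and 9.14 in homo, a log2 fold change of 0.30 ± 0.150 (SE).

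The values leaned to one side without passing the test gene by gene. The median log2 fold change of homo against WT was 0.25 over the 244 genes, with quartiles at 0.10 and 0.39, and 86.9% of the values were above 0. Over the 844 other Olfr genes tested the median was 0.20 with 81.2% above 0, and over all tested genes it was 0.00 with 51.2% above 0. Libraries did not overlap and were higher in homo for 17 of the 244 genes. The same held for 85 of the 844 other Olfr genes and for 2.97% of all genes. The lean was larger in the second segment, with a median of 0.29 and 97.3% of 37 genes above 0, than in the first, with 0.22 and 85.0% of 207. No test of that difference was made.

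Summed levels of cell type markers overlapped between the homo and WT libraries for each list given here, and edgeR called none of these marker genes. Their median log2 fold changes varied in size and sign. The summed immune genes were at 124 to 1006 CPM in WT, 121 to 330.0 in het and 111 to 288 in homo, with a median log2 fold change of -1.11 for homo against WT. Secretory genes were at 3855 to 6237 CPM in WT and 2939 to 4119 in homo, with a median of -0.76. Horizontal basal genes were at 84.3 to 163 CPM in WT and 72.3 to 121 in homo, with a median of -0.45, and respiratory ciliated genes had a median of -0.26. Sustentacular genes were at 2547 to 5241 CPM in WT and 5057 to 5633 in homo, with a median of 0.22. Mature OSN genes were at 7817 to 8285 CPM in WT and 8098 to 9010 in homo, with a median of 0.08. WT replicate 3 held the highest immune and the lowest sustentacular value, and without it the median of the OR genes was 0.22. The part of these cell types in the lean of the OR genes was not tested.

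Replicate numbers were also taken apart. Within number 1, which has 1 library per genotype and hence no replicate, the median log2 difference of homo from WT was 0.04 and 54.5% of genes were above 0. Within numbers 2 and 3 it was 0.35 with 88.1% above 0. The other Olfr genes also differed by number, with 0.095 (59.4% above 0) in number 1 and 0.25 (80.5%) in numbers 2 and 3. Fitting numbers 2 and 3 alone in edgeR gave 0 calls and 19 genes of the group at an unadjusted p under 0.05. Leaving out homo replicate 2 lowered the median of the group to 0.10, and leaving out homo replicate 1 raised it to 0.37. Dividing by the summed Olfr counts of each library, in place of TMM, gave a median of 0.05, while the median over all genes then moved to -0.18. Relative to the median of all genes the group was therefore 0.23 higher on that scale, and 0.25 higher on the TMM scale. A change of scale moves all genes by nearly the same amount, so the nearness of these 2 values is arithmetic and no check on the lean.

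**Figure D2:**
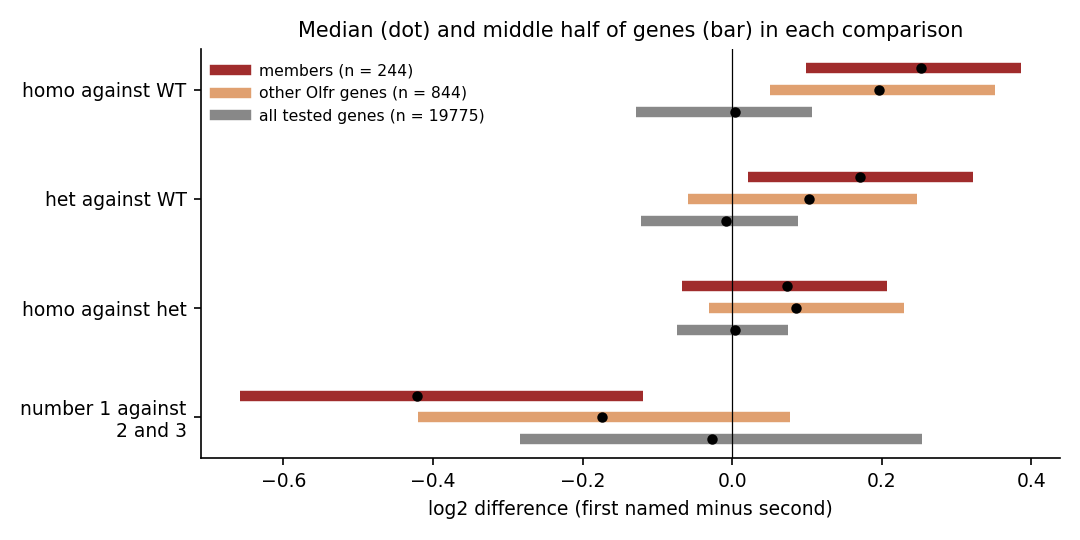
Median (dot) and middle 50% (bar) of the log2 differences in 4 comparisons, for the 244 tested genes of the group, the 844 other Olfr genes and all 19775 tested genes. The group's median is 0.25 for homo against WT and -0.42 for number 1 against numbers 2 and 3.

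The 247 genes summed to 561, 749 and 619 CPM for WT, to 597, 762 and 824 for het, and to 574, 874 and 803 for homo. The means were 643 ± 96.7 (SD, n = 3) in WT, 728 ± 117 in het and 750.3 ± 157 in homo. The genotypes thus overlapped, and their means differed by less than the SD of homo. Each SD includes the number 1 library, the lowest of its genotype. Among numbers 2 and 3 the WT libraries lay below those of het and homo. The same held for the summed other Olfr genes. Homo stood at 117% of WT and het at 113%. With number 1 left out these became 123% and 116%, and within number 1 they were 102% and 107%. The group's part of the Olfr counts was 18.1% ± 1.29 for WT, 18.8% ± 1.70 for het and 18.4% ± 1.87 for homo. Since the group was chosen with results known, no p is given for its sum.

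**Figure D3:**
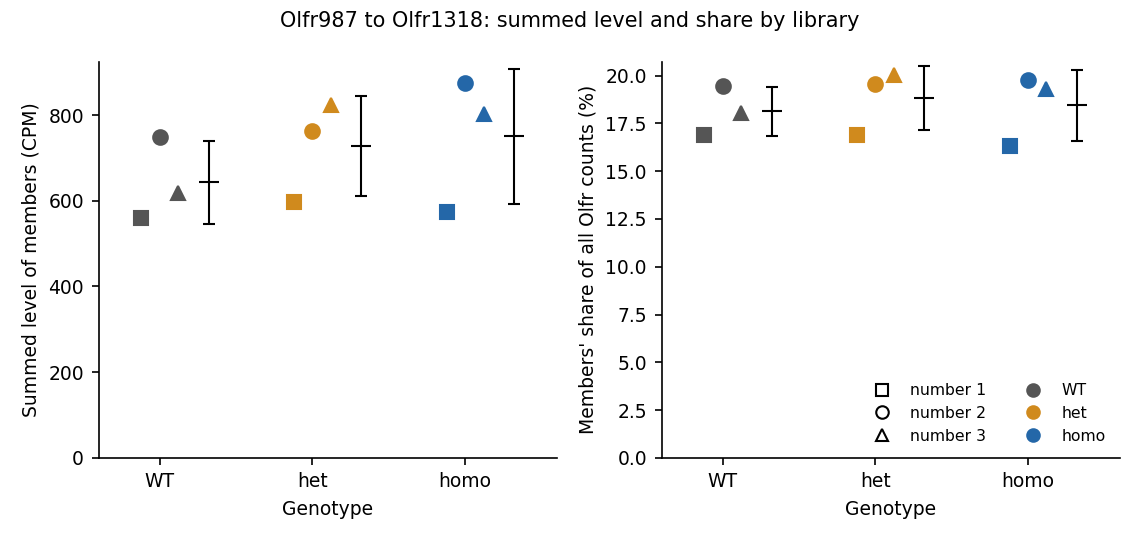
Summed CPM of the 247 genes (left) and their share of all Olfr counts in percent (right), by genotype, with 1 point per library shaped by replicate number and the mean ± SD beside (n = 3). The 3 number 1 libraries lie lowest in both panels, at 561 to 597 CPM and 16.3% to 16.9%.

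Loss of 1 copy of the element was examined with the same WT libraries. Between het and WT edgeR called 0 genes of the group, and 0% of all genes. The p before adjustment fell under 0.05 for 4, each of them higher in het. At that limit 9 of the 844 other Olfr genes and 0.415% of all genes were higher. DESeq2 found 0 calls with 2 at that limit and limma-voom 0 with 3. Olfr1155 was at 3.14, 3.68 and 4.24 CPM in WT and 5.30, 5.06 and 5.78 in het, with a log2 fold change of 0.54 ± 0.189 (SE). Olfr1029 was at 0.540, 0.588 and 0.553 CPM in WT and 0.946, 1.02 and 0.911 in het, with a log2 fold change of 0.77 ± 0.269. Olfr1300-ps1 was at 2.11, 1.58 and 1.81 CPM in WT and 2.70, 2.80 and 2.61 in het, with a log2 fold change of 0.57 ± 0.205. The genotypes did not overlap for any of these 3. In the group 18 genes behaved so, against 51 of the 844 other Olfr genes and 2.01% of all genes. Lower in het by the smallest p were Olfr1055, at a log2 fold change of -0.98 ± 0.550, Olfr1076 at -0.58 ± 0.343 and Olfr1115 at -0.39 ± 0.262, and of these Olfr1115 alone did not overlap. The median was 0.17 over the group, 0.10 over the other Olfr genes and -0.01 over all genes. It was 0.076 without het replicate 3, 0.27 without WT replicate 2 and 0.29 without het replicate 1. Scaling by Olfr counts gave 0.049, with all genes at -0.13. The group lay 0.18 above all genes on both scales, a distance that a change of scale leaves nearly as it was by construction.

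Homo and het were compared in the same way. EdgeR called 0 genes of the group, against 0.00506% of all genes, and 0 had an unadjusted p under 0.05. DESeq2 also gave 0 and 0, and limma-voom 0 calls with 1 at an unadjusted p under 0.05. The median log2 fold change was 0.07, with 60.7% of values above 0. Leaving out 1 library turned its sign in some cases, as it was -0.073 without homo replicate 2, -0.056 without het replicate 1, 0.011 without homo replicate 3, 0.11 without het replicate 2, 0.17 without het replicate 3 and 0.22 without homo replicate 1. Scaling by Olfr counts gave -0.0031, with all genes at -0.057. The smallest p among genes higher in homo was that of Olfr1145, with 1, 0 and 2 counts in het and 7, 4 and 3 in homo. All het libraries were at or under the floor of 3 counts, and homo replicate 3 was also at it. The homo mean lay 1.52-fold above the floor, which holds for the mean and not for each library. Olfr1022 and Olfr1113 followed with log2 fold changes of 0.82 ± 0.415 (SE) and 0.69 ± 0.354. Lower in homo came Olfr1300-ps1 at -0.29, whose libraries did not overlap, and Olfr1239 at -0.46 and Olfr1286 at -0.36, whose libraries did. A test for any difference among the 3 genotypes also called 0, against 0.00506% of all genes, with 0 of the group at an unadjusted p under 0.05 by edgeR, and 0 calls with 1 at that limit by each of DESeq2 and limma-voom.

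The largest differences within the group followed replicate number. With genotype in the model, 58 of 244 genes were called between number 1 and numbers 2 and 3 by edgeR's quasi-likelihood test, against 8.95% of all genes. Of these, 57 were lower in number 1, against 3.52% of all genes, and Olfr1166 was higher. The median log2 difference was -0.42 over the group, -0.17 over the other Olfr genes, of which 92 of 844 were called, and -0.03 over all genes. All 3 number 1 libraries lay below all 6 others for 63 genes of the group. The same held for 115 of the 844 other Olfr genes and 16.2% of all genes. DESeq2 called 54 and limma-voom 49. The count rests in part on single libraries, since it was 25 without homo replicate 1, 33 without het replicate 1 and 73 without WT replicate 3.

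The 5 genes lower in number 1 with the smallest p were Olfr1110, Olfr1154, Olfr1193, Olfr1271 and Olfr1221. Olfr1110 was at 7.90, 9.41 and 10.02 CPM in the number 1 libraries of WT, het and homo. In numbers 2 and 3 it was at 13.5 and 12.7 in WT, 14.5 and 16.4 in het, and 15.8 and 17.6 in homo. The groups did not overlap, and the log2 difference was -0.73 ± 0.0870 (SE) with an adjusted p of 0.000661. This gene missed the fold limit when libraries were scaled by their Olfr counts, at -0.53.

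Olfr1154 was at 1.37, 2.13 and 1.31 CPM in number 1 and between 3.09 and 4.28 in the other libraries, a log2 difference of -1.24 ± 0.164. Olfr1193 was at 2.11, 3.07 and 2.63 CPM against 3.94 to 6.08, at -1.06 ± 0.156. Olfr1271 was at 2.11, 2.89 and 2.45 CPM against 4.46 to 6.32, at -1.02 ± 0.151. None of these 3 overlapped between the numbers. Olfr1221 was at 1.28, 1.66 and 1.36 CPM against 2.51 to 4.24, again without overlap, at -1.27 ± 0.208. Adjusted p-values of these 4 lay between 0.00101 and 0.00253 by edgeR. These 4 are among 14 genes of the group that were called in number 1 under each of the 17 alternative settings run. How many genes outside the group stayed called in this way was not counted.

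Olfr1166 went the other way. It was at 3.53, 3.36 and 4.81 CPM in number 1 and at 2.16, 1.73, 1.78, 2.46, 3.66 and 2.45 in numbers 2 and 3, so homo replicate 2 overlapped with number 1. Its log2 difference was 0.72 ± 0.182 (SE) with an adjusted p of 0.0165 by edgeR, and the call was lost when any 1 of the number 1 libraries was left out (adjusted p between 0.0688 and 0.0867). Only 80.7% of its 50-base windows are unique, and it shares sequence with Olfr1170.

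**Figure D4:**
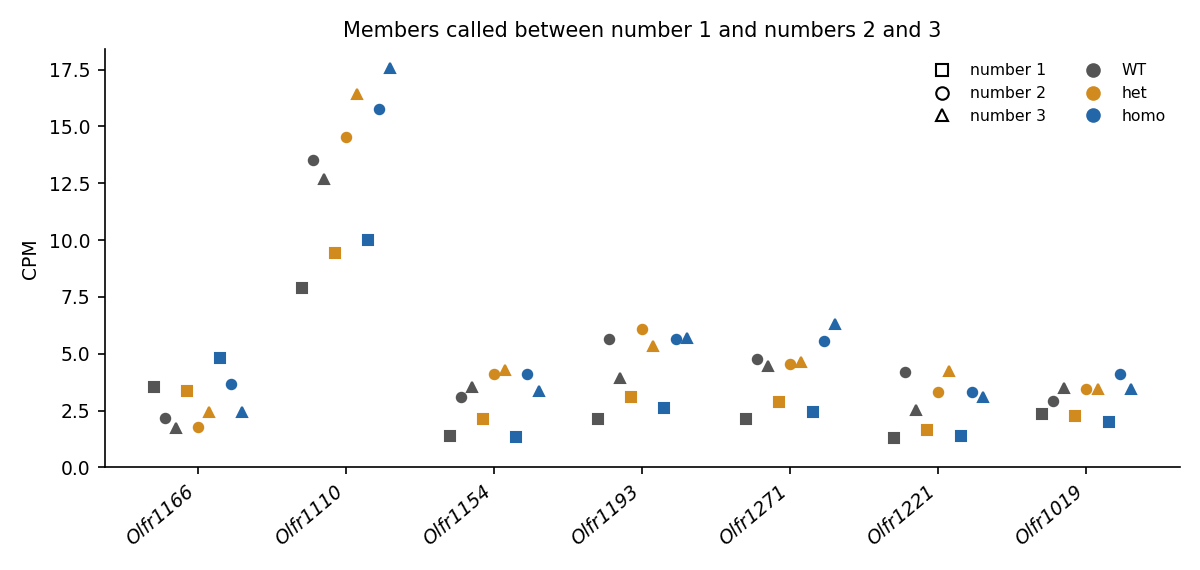
CPM of Olfr1166, the 5 genes lower in number 1 with the smallest p, and Olfr1019, with 1 point per library coloured by genotype and shaped by replicate number. Squares (number 1) lie below all other points except for Olfr1166, where they lie among the highest.

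Windows at the annotated start are shown for the 4 of these genes whose RefSeq transcript start lay within 50 bases of a GENCODE start. Genes that move together in the same libraries can be read here side by side. Each window runs from 250 bases before to 50 bases after the start in RefSeq (GRCm38.p6) and is written on the gene's strand. Capitals mark matches on either strand to TATAAA, known from core promoters, and to TAATTA, the core sequence that homeodomain factors such as Lhx2 read:
Olfr1154, chr2:87903625-87903924, minus strand: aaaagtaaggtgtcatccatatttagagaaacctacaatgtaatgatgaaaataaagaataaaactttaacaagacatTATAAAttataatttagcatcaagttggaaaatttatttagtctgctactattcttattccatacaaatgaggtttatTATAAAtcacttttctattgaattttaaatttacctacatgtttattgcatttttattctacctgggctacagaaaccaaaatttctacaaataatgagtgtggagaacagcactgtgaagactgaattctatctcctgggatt
Olfr1193, chr2:88677607-88677906, plus strand: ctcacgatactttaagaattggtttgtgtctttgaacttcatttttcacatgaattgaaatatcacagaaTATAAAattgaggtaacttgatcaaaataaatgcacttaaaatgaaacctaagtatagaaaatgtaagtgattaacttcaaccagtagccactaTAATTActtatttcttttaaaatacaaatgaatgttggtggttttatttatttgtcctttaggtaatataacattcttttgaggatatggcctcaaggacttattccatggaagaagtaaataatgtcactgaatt
Olfr1221, chr2:89112461-89112760, minus strand: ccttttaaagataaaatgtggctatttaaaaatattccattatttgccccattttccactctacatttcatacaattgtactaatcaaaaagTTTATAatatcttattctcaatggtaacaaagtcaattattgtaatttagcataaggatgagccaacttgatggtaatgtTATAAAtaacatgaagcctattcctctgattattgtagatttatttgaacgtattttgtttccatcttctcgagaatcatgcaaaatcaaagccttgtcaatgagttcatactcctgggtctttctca
Olfr1271, chr2:90266379-90266678, minus strand: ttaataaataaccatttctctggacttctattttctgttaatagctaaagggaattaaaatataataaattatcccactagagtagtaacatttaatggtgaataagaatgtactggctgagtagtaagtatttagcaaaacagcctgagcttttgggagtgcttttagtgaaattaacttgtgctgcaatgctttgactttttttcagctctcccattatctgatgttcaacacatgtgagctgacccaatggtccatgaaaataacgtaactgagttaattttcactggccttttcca
TATAAA was found in 3 of the 4 windows, as its reverse complement in 1 instance for Olfr1221, and TAATTA in 1. Olfr1271 had neither. Over the 205 windows of the 203 genes of the group with a RefSeq window, TATAAA was present in 55.1%, against 37.1% of 743 windows of other Olfr genes and 13.6% of all 32851 windows. TAATTA was present in 25.4%, against 16.7% and 5.29%. Some of the windows start at the coding sequence, since RefSeq lists no upstream exon for these models. In all 4 windows shown, the 50 bases after the start begin with ATG and the coding sequence. Whether these 4 hold the promoter is therefore not known, and how many other windows start so was not counted. Among 179 genes with a start near a GENCODE start, the median number 1 difference was -0.43 for the 50 with TAATTA and -0.50 for those without, and -0.47 and -0.50 with and without TATAAA. A match is a description of these letters and says nothing about binding.

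Position along the chromosome went with the size of the number 1 difference. The median log2 difference was -0.29, -0.34 and -0.29 in the first 3 Mb of the first segment, in steps of 1 Mb, and -0.57 and -0.58 in the next 2 Mb. Over the first 3 Mb 24 of 128 genes were called lower (18.8%), and beyond it 26 of 79 (32.9%). In the second segment 7 of 37 were called lower (18.9%), with a median of -0.42. The division at 3 Mb was made after the values were seen and was not tested. For homo against WT the medians of the same stretches were 0.23, 0.22 and 0.29.

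**Figure D5:**
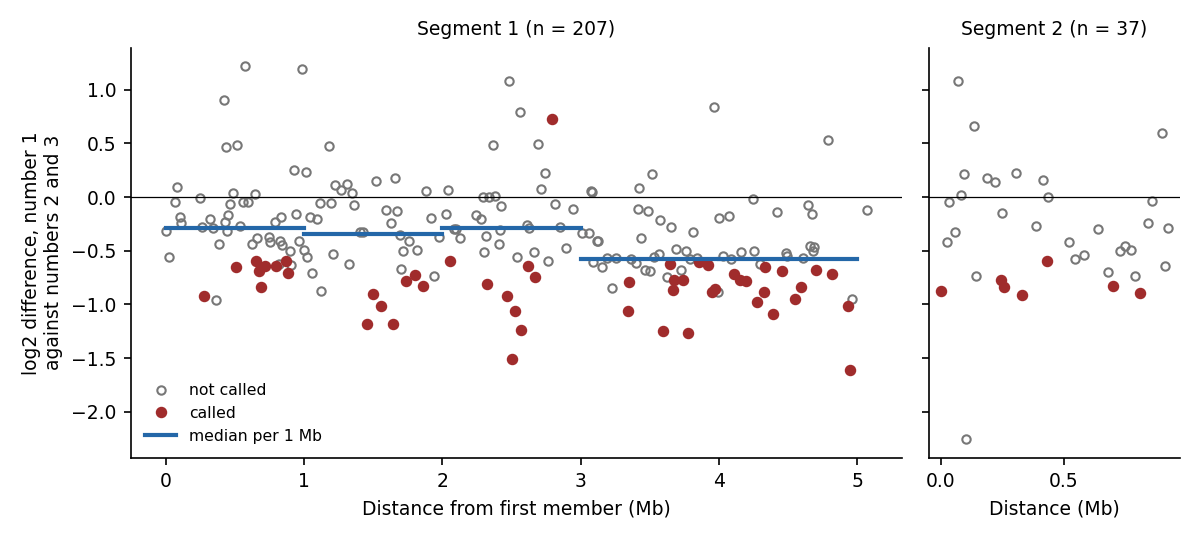
Log2 difference of number 1 against numbers 2 and 3 (vertical axis) by distance from the first gene of each segment in Mb (horizontal axis), with called genes filled and medians of 1-Mb steps with at least 20 genes as lines. The medians lie near -0.3 up to 3 Mb and near -0.6 beyond, and called genes occur along both segments.

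The summed level of the group was 577 ± 18.7 CPM (SD, n = 3) in number 1 and 772 ± 87.4 (SD, n = 6) in numbers 2 and 3, so number 1 stood at 74.8% of the others. For the summed other Olfr genes it stood at 89.9%. The share of Olfr counts taken by the group was 16.3% to 16.9% in number 1 and 18.1% to 20.04% in the other 6 libraries. Within genotypes, each with 1 library against 2, the median difference of the group was -0.20 in WT, -0.41 in het and -0.57 in homo. Over the other Olfr genes it was -0.090, -0.12 and -0.29 in the same order. When libraries were scaled by their Olfr counts the median over the group was -0.23, while the median over all genes moved to 0.17. On that scale 33 of the 244 genes were called, 27 of them lower, against 2646 of all 19775 genes tested. Relative to all genes the group was at -0.40 on both scales, a distance that a change of scale leaves nearly as it was by construction.

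Markers of other cells moved with replicate number. The summed level of 5 immature neuron genes was 1302 to 1306 CPM in number 1 and 937 to 1117 in the others, and Gap43 and Gng8 were called higher. Among genes of globose basal cells and progenitors, Neurog1 was called higher in number 1, at 18.8 to 24.0 CPM against 5.71 to 7.75, and so was Neurod1, at 63.9 to 68.0 against 30.4 to 45.3. Kit and Mki67 had log2 differences of 0.36 and 0.30, with edgeR adjusted p of 0.00263 and 0.0884, and were not called, and Top2a, at -0.053, overlapped with 155 to 161 CPM against 116 to 191. Respiratory ciliated genes were at 1225 to 1297 CPM against 834 to 1004, with 3 of 5 called higher, and horizontal basal genes at 119 to 163 against 72.3 to 101, with 1 of 3 called higher. Immune genes were at 111 to 124 CPM against 191 to 1006, with 4 of 5 called lower. Mature OSN genes overlapped, at 7817 to 8425 CPM against 7851 to 9010, and of 12 only Gng13 was called, higher in number 1. The part of these cell types in the difference of the OR genes was not tested.

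The remaining lists overlapped between the numbers. Sustentacular genes were at 4725 to 5057 CPM in number 1 against 2547 to 5633 in the others. Secretory genes were at 3313 to 3855 against 2939 to 6237, with 1 of 5 called higher and 1 lower. Dorsal zone genes were at 467 to 523 against 479 to 582, and the ventral zone gene at 115 to 127 against 72.4 to 119. Of the 5 blood genes only Alas2 was tested, at 20.8 to 24.0 against 14.7 to 27.6. Hba-a1, Hba-a2, Hbb-bs and Hbb-bt were at 0 CPM in all 9 libraries. No gene of any of these lists was called in a genotype comparison by edgeR.

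The genes that act in OR choice and OR transport gave a mixed pattern in number 1. Of 20 such genes, 3 were called higher and none lower. Lhx2, which binds OR enhancers, was at 361 to 374 CPM in number 1 against 183 to 221, a log2 difference of 0.84 ± 0.0616 (SE). Emx2, a homeodomain factor needed for many OR genes, was at 127 to 134 CPM against 72.2 to 86.1, at 0.69 ± 0.0600. Atf5, a factor in the feedback that stabilises OR choice, was at 1130 to 1162 CPM against 679 to 818, at 0.61 ± 0.0770. Ebf3, Trim28 and Ebf1 had log2 differences of 0.40, 0.30 and 0.28, with edgeR adjusted p of 0.00207, 0.0108 and 0.00757. Ldb1 and the receptor transporters Rtp1 and Rtp2 had log2 differences of 0.25, 0.20 and 0.15, with edgeR adjusted p of 0.0147, 0.0334 and 0.0814. All of these were under the fold limit. Lbr and Cbx5, which act in heterochromatin, and the transport gene Reep1 went the other way, with log2 differences of -0.46, -0.28 and -0.30 and edgeR adjusted p of 0.00636, 0.0112 and 0.0038, also under the fold limit. Between homo and WT the median of the 20 was 0.07.

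Olfr1019, a receptor known to respond to the fox odour TMT and to take part in freezing behaviour, was at 2.35, 2.91 and 3.50 CPM in WT, 2.27, 3.44 and 3.45 in het, and 1.99, 4.09 and 3.46 in homo. The genotypes overlapped, with a log2 fold change of 0.12 ± 0.300 (SE) for homo against WT. Number 1 was lower in each genotype, at -0.65 ± 0.156 with an adjusted p of 0.0138 by edgeR. That call was lost without het replicate 1 (adjusted p = 0.0594), without homo replicate 1 (0.0954) and with scaling by Olfr counts (0.0581).

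All 5 genes with a -ps symbol were detected. Olfr1274-ps ranged from 3.10 to 4.53 CPM, Olfr1038-ps from 2.50 to 4.31, and Olfr1300-ps1 from 1.58 to 2.80. Olfr1077-ps1 was between 0.332 and 0.871 CPM and Olfr1273-ps between 0.136 and 1.30, where homo replicate 3 gave the highest value. None was called in a genotype comparison, and their log2 fold changes for homo against WT lay between 0.03 and 0.49.

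Genes of the group varied more between libraries than the whole table did. The median biological coefficient of variation, which is the spread left after counting error, was 27.7% over the group, 24.0% over other Olfr genes and 19.3% over all genes. At levels within the group's middle range of 1.12 to 3.77 CPM the medians were 27.7%, 24.5% and 26.4%. With number 1 as a term in the model they fell to 20.4%, 19.3% and 13.8% over all genes of each set. Among genes at 1 CPM or more the largest coefficients of variation over the 9 libraries were those of Olfr1284 at 47.7%, Olfr1148 at 47.5%, Olfr1202 at 47.1%, Olfr1085 at 43.7% and Olfr1211 at 42.2%.

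These 5 did not share a single pattern. Olfr1148 was at 0.687, 0.993 and 0.544 CPM in number 1 and 1.62 to 2.81 in the others, a log2 difference of -1.51 ± 0.275 with an adjusted p of 0.00421 by edgeR. Olfr1211 was at 1.08, 1.75 and 1.04 CPM in number 1 and 1.77 to 3.55 in the others, at -1.25 ± 0.264, and its call was lost without homo replicate 1 (adjusted p = 0.0643). Olfr1284 reached 2.22 CPM in homo replicate 2 and lay between 0.627 and 1.39 in the other 8 libraries. Olfr1085 reached 3.25 CPM in het replicate 3 and lay between 0.932 and 2.04 elsewhere. Olfr1202 ranged from 0.553 CPM in WT replicate 3 to 2.87 in homo replicate 2, with number 1 in between.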

How the data were processed

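Total RNA from the MOE of 9 mice was made into strand-specific polyA libraries, mapped to mm10 (GRCm38) with HISAT2 2.1.0 and counted with featureCounts (Subread 1.6.2), per the study's methods and the submitters' processing notes, which also name Trimmomatic 0.36. The authors deposited raw counts per gene symbol and a signal, the counts divided by 1 DESeq2 1.20.0 size factor per library, which matched for all 247 genes within 0.01 counts. The annotation release and strand option are not given in the sources used here. Calls used raw counts, edgeR 4.0.16 (R 4.3.3), TMM scaling, genes with at least 10 counts over 9 libraries, all 9 libraries in 1 fit, a two-sided quasi-likelihood test, adjusted p under 0.05 and fold over 1.5. SE is the log2 fold change divided by the square root of the test's F value. The any-genotype test had no fold limit. Alternatives used DESeq2 1.42.0, limma 3.58.1, other scalings, filters and samples. A count of 3 per library is the floor, covering counting error only. Whether libraries stand for separate mice is as the study states, 3 per genotype. The fit was tested on simulated data.

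The genes and lists were chosen with earlier results of these data known. Genes named are the 10 with the highest mean CPM; in each genotype comparison the 5 (homo against WT) or 3 of smallest p in each direction; up to 5 called in each direction for replicate number; Olfr1019; the -ps genes; the 5 of at least 1 CPM with the largest coefficient of variation; the first and last gene with their neighbours by number; and fixed lists of cell type markers and OR choice genes. Same-numbered libraries of WT and het deviated together from their group means (correlations of 0.670, 0.460 and 0.615 over 16156 genes, limit 0.1), so these numbers were taken to pair WT with het. The other pairs did not all pass. Some results on the marker lists and shared coding stretches are not reported here.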

Additional observations from a re-analysis of the deposited data

How the results depend on the processing

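Of 12 summary results, 11 kept their value within the spread between libraries, or their count within 1.5 times, under each alternative run. For the medians that spread was 0.265 in log2, which is larger than any of the genotype medians. A genotype median could thus fall to 0 or turn its sign and still count as kept, so this limit is no check on the lean. Calls between genotypes stayed at 0. Calls for replicate number in the group fell from 58 to 33 with scaling by summed Olfr counts. Over all genes they rose from 1769 to 2646. With 1 library left out the calls in the group ranged from 25 to 73. With the replicate block, which pairs WT with het, het against WT had 0 calls, 14 genes at an unadjusted p under 0.05 and a median of 0.19. For homo against WT the correlation of same-numbered libraries was 0.507, 0.290 and -0.11, and for het with homo 0.779, 0.297 and 0.0912, so numbers 3 did not pair. Libraries of different number also deviated together, at 0.606 for het 2 with homo 3, 0.510 for het 3 with homo 2 and 0.506 for WT 2 with homo 3. The numbers can therefore not be taken to pair homo with WT or het. For homo against WT the block gave 0 calls, 14 genes at an unadjusted p under 0.05 by edgeR and a median of 0.25. For homo against het the block gave 0 calls, 2 genes at that limit and a median of 0.07. It changed no call. Leaving out the 3 libraries numbered 1 was chosen after seeing the data.

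Of 59 values for named genes, 37 kept direction and call. With scaling by summed Olfr counts the homo against WT log2 value became -0.083 for Olfr1213, -0.093 for Olfr1262, -0.12 for Olfr1222, -0.094 for Olfr1019, -0.071 for Olfr1274-ps and -0.14 for Olfr1038-ps, and the number 1 value became 0.044 for Olfr1262, 0.13 for Olfr1260, 0.037 for Olfr1015 and 0.072 for Olfr1202. With numbers 2 and 3 alone, homo against WT was 0.17 for Olfr1287 and -0.12 for Olfr1038-ps. With 1 library left out, homo against WT ranged from -0.074 to 0.40 for Olfr1213, -0.033 to 0.26 for Olfr1262, -0.090 to 0.19 for Olfr1222, -0.40 to 0.11 for Olfr1184, -0.10 to 0.37 for Olfr1019, -0.028 to 0.25 for Olfr1274-ps, -0.056 to 0.14 for Olfr1038-ps and -0.75 to 0.94 for Olfr1273-ps. The number 1 value ranged from -0.29 to 0.067 for Olfr1260 and from -0.92 to 0.25 for Olfr1202. The cause of these changes was not tested. None of these reversed values had an adjusted p under 0.05. Low counts limit Olfr1145 and other genes near the floor of 3 counts.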
